A study of Mus musculus with 12 samples.

Results

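The 10 genes described here mark the pigment-making melanocytes of skin: *Tyr*, *Tyrp1*, *Dct*, *Pmel*, *Mlana*, *Mitf*, *Kit*, *Slc45a2*, *Oca2* and *Sox10*. They were taken by name from the 18193 genes measured in 12 samples of whole mouse skin, each hybridised to 1 Affymetrix Mouse Genome array. A probe set counted for a gene when it was annotated to that gene alone. All 10 genes were measured, by 19 probe sets, and 6 of them had more than 1. Where a gene had several, the one with the brightest average across all arrays served as its main probe set.

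The study asked how AhR, the aryl hydrocarbon receptor that small molecules switch on to act as a transcription factor, shapes the early skin response to imiquimod (IMQ), a Toll-like receptor agonist given as a cream that causes psoriasis-like inflammation in mice. The groups, 4 in all with 3 arrays labelled as biological replicates in each, were AhR HET untreated, AhR KO untreated, AhR HET 2d Imiquimod and AhR KO 2d Imiquimod. AhR HET mice were *Ahr*+/- and AhR KO mice were *Ahr*-/-, so the controls also carried 1 inactive copy of the gene, and the loss in AhR KO mice was not limited to one cell type. Untreated skin was taken at day 0 and treated skin at day 2, after daily IMQ cream on shaved back skin. Untreated mice received no cream, so IMQ, its cream base and the application itself cannot be told apart. Age, sex and coat colour are not given in the sources used here.

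Melanocytes make melanin inside melanosomes, organelles that they pass on to keratinocytes. Tyrosinase, encoded by *Tyr*, carries out the rate-limiting step, and the related enzymes encoded by *Tyrp1* and *Dct* act on the intermediates of eumelanin. *Pmel* encodes the protein that forms the fibrils on which melanin is laid down, and *Mlana* encodes a small melanosomal membrane protein. *Slc45a2* and *Oca2* encode melanosomal membrane transporters. MITF is the transcription factor that drives the pigment genes, SOX10 acts above it in the neural crest lineage, and KIT is the receptor for stem cell factor that melanocyte precursors need to survive and migrate. In the furred skin of mice most melanocytes sit in hair follicles, where the pigment genes are active while a hair grows. Some members are shared with other cells of skin: *Kit* with mast cells, *Sox10* with Schwann cells of nerves, and *Mitf* with many cell types.

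MITF binds a motif called the M-box, whose core is CATGTG. The 250 bases before the start sites of the members were searched for it on both strands. RefSeq windows (GRCm38.p6) were at hand for 6 members, *Tyr*, *Tyrp1*, *Dct*, *Oca2*, *Mitf* and *Kit*, and not for *Pmel*, *Mlana*, *Slc45a2* and *Sox10*. These 6 members had 9 windows, of which some overlap. The core was in 4 of the 9 windows, 1 each of *Tyr*, *Tyrp1*, *Dct* and *Oca2*, compared with 12.3% of all 32851 windows. The count describes known pigment genes and carries no test, and binding of MITF was not measured. Each match is printed on the strand on which it reads CATGTG, in capitals, with the bases around it.
Tyr, chr7:87493513-87493550, strand of the gene: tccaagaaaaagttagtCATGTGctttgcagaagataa
Tyrp1, chr4:80834150-80834189, strand of the gene: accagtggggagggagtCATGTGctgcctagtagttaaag
Dct, chr14:118052374-118052413, strand of the gene: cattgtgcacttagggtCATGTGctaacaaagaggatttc
Dct, chr14:118052456-118052495, opposite strand: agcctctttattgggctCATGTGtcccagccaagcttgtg
Oca2, chr7:56239556-56239595, opposite strand: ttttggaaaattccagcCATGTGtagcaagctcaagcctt
Counted from the start site, with negative positions before it, the match of *Tyr* lay at -21 to -16 and that of *Tyrp1* at -46 to -41. The matches of *Dct* lay at -150 to -145 and at -232 to -227, and that of *Oca2* at -186 to -181. The related E-box sequence CACGTG, counted apart from the M-box core, was in none of the 6 members' windows and in 6.02% of all windows. The core of the AhR motif, GCGTG, was in the windows of *Kit* and *Oca2* and in 28.2% of all windows.

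One array stood apart. AhR HET untreated 2 had the highest signal of all 12 arrays in 8 of the 10 members, compared with 11.16% of all genes. In 7 members it lay more than 1 log2 unit above each of the other 11 arrays, compared with 1.061% of all genes. Each of the other arrays was the highest in at most 1 member. Across all probe sets of the members, 14 of 19 were highest in that array. The same array was the highest of 12 in 25 of 25 measured genes of the growing hair follicle (hair keratins, trichohyalin and their regulators), by more than 1 log2 unit in 24 of them. The mean log2 signal of those 25 genes was 11.54 in AhR HET untreated 2. It was 7.65 and 7.87 in the other AhR HET untreated arrays, 5.95 to 6.91 in AhR KO untreated, 5.83 to 7.36 in AhR HET 2d Imiquimod and 5.74 to 6.25 in AhR KO 2d Imiquimod. The part of hair growth in the members' values was not tested. The members' comparisons are therefore given with and without it.

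Signals are deposited log2 values from robust multi-array averaging (RMA), which gives no call of presence or absence, and levels are compared within a probe set only. The median log2 signal of all genes on an array was between 7.38 and 7.56. *Ahr* itself had log2 signals of 10.11 to 11.30 in AhR HET untreated, 11.29 to 11.44 in AhR KO untreated, 9.79 to 10.27 in AhR HET 2d Imiquimod and 9.07 to 9.87 in AhR KO 2d Imiquimod, so it was not lower in untreated AhR KO skin. The sources used here do not place its probes against the disrupted part of the gene, so this signal does not check the labels. The 3' control probe set of *Gapdh* minus its 5' set, on the log2 scale, a measure that rises when RNA is degraded or shortened, was 1.17 and 1.52 in AhR KO 2d Imiquimod 1 and 2 and 0.14 to 0.53 in the other 10 arrays.

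*Tyr* was far higher in AhR HET untreated 2 than in any other array. Its log2 signals were 4.96, 10.45 and 6.28 in AhR HET untreated 1, 2 and 3. They were 4.77, 4.89 and 4.96 in AhR KO untreated, 5.24, 4.69 and 4.65 in AhR HET 2d Imiquimod, and 4.94, 4.60 and 4.77 in AhR KO 2d Imiquimod. AhR HET untreated 3 was the next highest array, and the third array of that group lay within the range of the treated groups. Of the other probe sets of *Tyr*, 1456095_at read 6.98 in AhR HET untreated 2 and at most 3.86 elsewhere, and 1448821_at read 5.91 and at most 4.44.

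*Tyrp1* read 7.25, 10.97 and 7.99 in AhR HET untreated and 6.86, 6.92 and 7.04 in AhR KO untreated. After IMQ it read 6.58, 6.41 and 6.55 in AhR HET skin and 5.97, 6.62 and 6.19 in AhR KO skin. In both genotypes every treated array lay below every untreated one, and the treated groups of the 2 genotypes overlapped. They did not overlap by the other probe sets. Set 1415861_at read 6.63, 6.51 and 6.75 in treated AhR HET skin and 5.68, 5.99 and 5.25 in treated AhR KO skin, and set 1415862_at read 6.17, 6.13 and 6.18 and then 4.74, 4.70 and 5.15. The plot of every probe set shows this difference between the sets of *Tyrp1*.

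*Dct* read 9.52, 12.29 and 9.69 in AhR HET untreated and 8.70, 8.76 and 8.63 in AhR KO untreated. After IMQ it read 7.54, 7.97 and 7.92 in AhR HET skin and 6.03, 7.03 and 6.22 in AhR KO skin. The 4 groups did not overlap, in the order AhR HET untreated, AhR KO untreated, AhR HET 2d Imiquimod and AhR KO 2d Imiquimod from high to low.

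The fibril protein gene *Pmel* read 8.34, 11.80 and 8.56 in AhR HET untreated and 8.04, 7.82 and 7.89 in AhR KO untreated. After IMQ it read 7.33, 7.44 and 7.38 in AhR HET skin and 6.505, 6.96 and 6.43 in AhR KO skin. Its 4 groups stood in the same order as those of *Dct*, again without overlap. *Mlana* read 6.83, 11.17 and 7.15 in AhR HET untreated and 6.39, 6.51 and 6.49 in AhR KO untreated. After IMQ it read 5.74, 5.45 and 5.47 in AhR HET skin and 4.996, 4.99 and 5.37 in AhR KO skin. *Mlana* was the last of the 3 members, with *Dct* and *Pmel*, whose 4 groups stood apart in this order. The same order without overlap was found in 14 of all 18193 genes, or 0.077%. The order was noticed in these values, so the count is a description with no test.

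The transporters did not follow this order. *Slc45a2* read 5.62, 7.31 and 5.73 in AhR HET untreated, 5.39, 5.92 and 5.86 in AhR KO untreated, 5.68, 5.75 and 5.85 in AhR HET 2d Imiquimod, and 5.39, 5.66 and 5.70 in AhR KO 2d Imiquimod. Beyond the 7.31 of AhR HET untreated 2 the groups overlapped, and its second probe set read 7.32 there and at most 5.84 elsewhere. *Oca2* read 5.32, 9.19 and 6.01 in AhR HET untreated, 5.20, 5.07 and 5.46 in AhR KO untreated, 5.63, 5.20 and 5.46 in AhR HET 2d Imiquimod, and 5.55, 5.90 and 5.74 in AhR KO 2d Imiquimod. In AhR KO skin every treated array was above every untreated one for *Oca2*, opposite to the melanin enzymes *Dct* and *Tyrp1*. The share of all genes with every treated array above was not counted.

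Among the regulators, *Mitf* read 9.82, 10.23 and 9.49 in AhR HET untreated and 9.53, 9.47 and 9.55 in AhR KO untreated. After IMQ it read 8.88, 9.04 and 9.23 in AhR HET skin and 8.73, 8.19 and 8.84 in AhR KO skin. Treated and untreated arrays did not overlap in either genotype. The other *Mitf* probe set, 1422025_at, stayed between 4.21 and 5.22. Its treated arrays lay below the untreated ones in AhR HET skin, and its AhR KO groups overlapped. *Sox10* read 7.31 to 7.61 in untreated skin of both genotypes, 7.14 to 7.22 in AhR HET 2d Imiquimod and 7.24 to 7.42 in AhR KO 2d Imiquimod. Its range over the 12 arrays was 0.47 log2 units, the narrowest of the members' main sets, and AhR HET untreated 2 was not its highest array. Its set 1424985_a_at read 6.30, 6.51 and 6.41 in AhR HET untreated and 6.26 to 6.48 in AhR KO untreated. After IMQ that set read 6.53, 6.21 and 6.54 in AhR HET skin and 6.62 to 6.89 in AhR KO skin. Only in AhR KO skin did its groups stand apart, with the treated arrays higher. Set 1425369_a_at overlapped in each genotype.

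The receptor gene *Kit* read 8.19, 7.89 and 7.19 in AhR HET untreated and 7.99, 7.87 and 6.996 in AhR KO untreated. After IMQ it read 6.94, 6.74 and 6.77 in AhR HET skin and 7.14, 6.87 and 6.34 in AhR KO skin. The groups of AhR HET skin did not overlap, and those of AhR KO skin did. AhR HET untreated 2 was not the highest array for *Kit*, and the second *Kit* probe set stayed between 4.13 and 4.83.

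**Figure D1:**
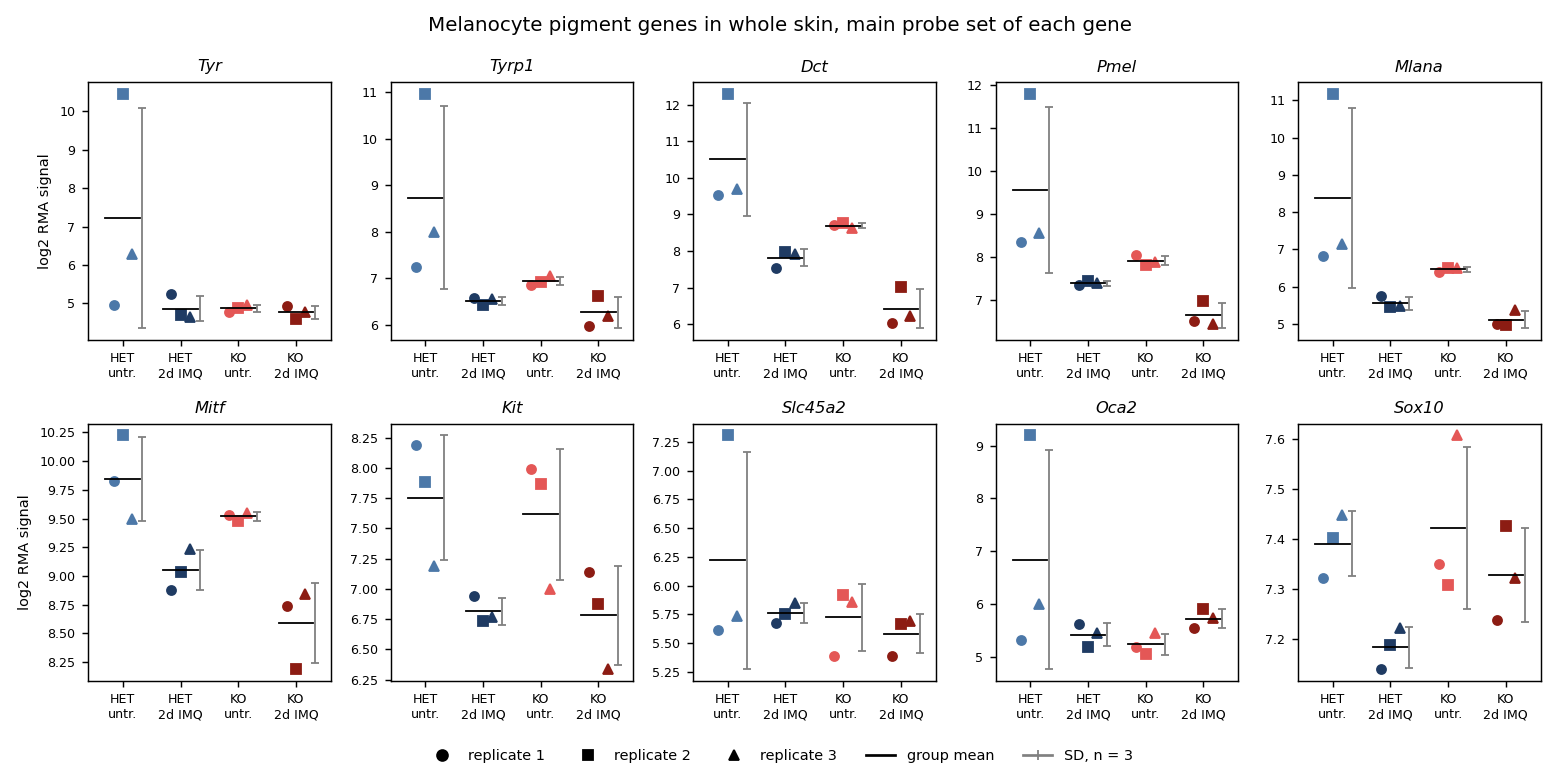
Log2 RMA signal of the main probe set of each of the 10 members (vertical axes, scaled to each gene and not starting at 0) in the 4 groups (horizontal axis, 3 arrays each); symbols mark the replicate, the black line is the group mean and the grey bar the SD over 3 arrays. The square of AhR HET untreated stands far above the other arrays in 7 members, while *Dct*, *Pmel* and *Mlana* are lower after IMQ in each genotype also without it.

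**Figure D2:**
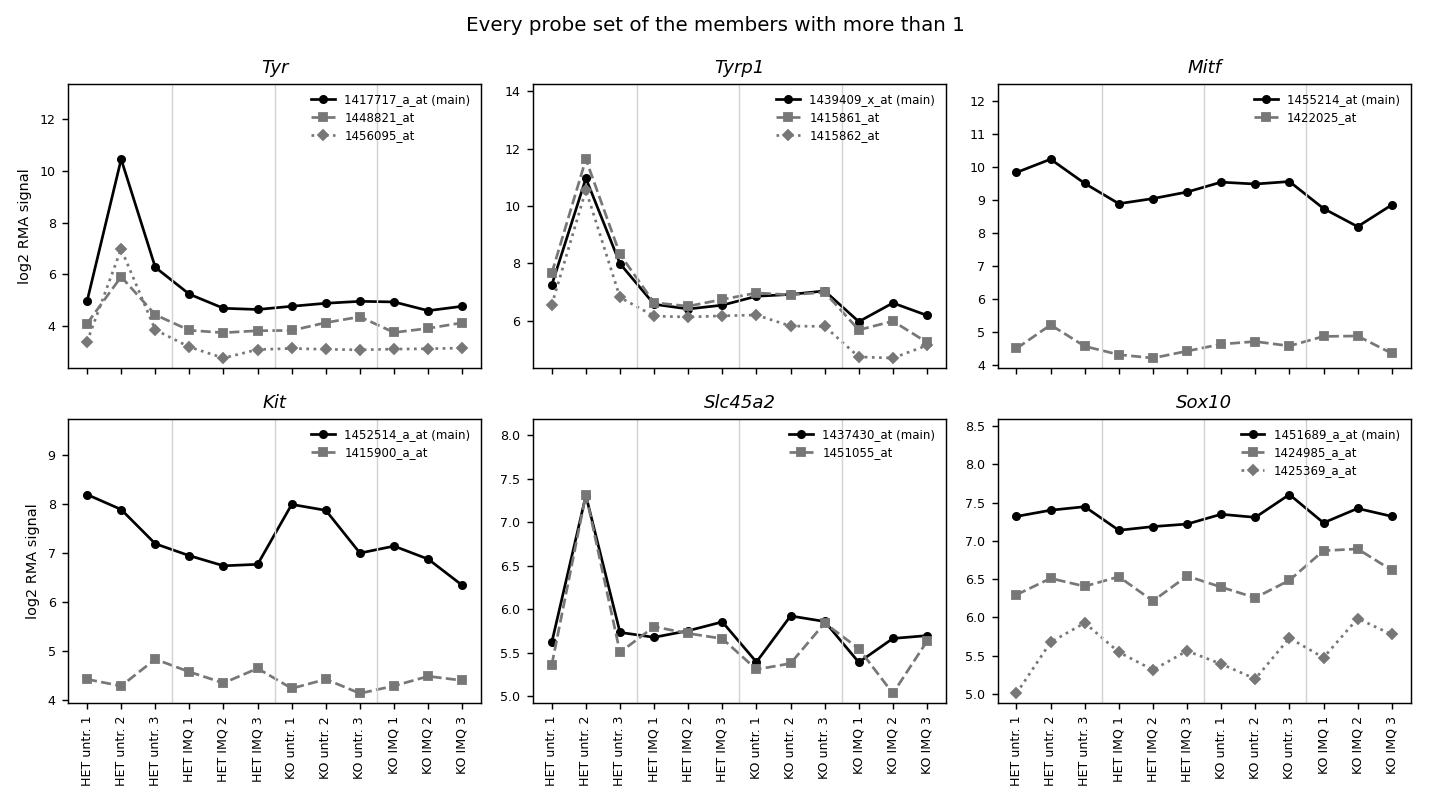
Log2 RMA signal (vertical axes) of every probe set of the 6 members with more than 1, by array (horizontal axis, groups parted by grey lines); the black line is the main set. The sets of *Tyr*, *Tyrp1* and *Slc45a2* share their peak in AhR HET untreated 2, whereas the second sets of *Mitf* and *Kit* lie far below the main ones and vary less.

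IMQ against untreated in AhR HET skin was the first comparison. Over all 12 arrays *Dct*, *Mlana* and *Mitf* fell, by the call used throughout: an adjusted p under 0.05 and a fold of at least 1.5. These were 3 of 10 members, beside 3.83% of all genes called lower. *Dct* fell by 2.69 on the log2 scale (SE 0.55, adjusted p = 0.00924). *Mlana* fell by 2.83 (SE 0.80, adjusted p = 0.0438). *Mitf* fell by 0.80 (SE 0.21, adjusted p = 0.0291). The log2 differences of *Tyr* (-2.37, adjusted p = 0.14), *Tyrp1* (-2.22, adjusted p = 0.0521) and *Pmel* (-2.18, adjusted p = 0.0523) were of similar size with wide intervals, and none was called. With every probe set tested on its own, the main sets of *Tyrp1* (adjusted p = 0.0495) and *Pmel* (adjusted p = 0.0498) were called. So was *Tyrp1* set 1415861_at (-2.57, adjusted p = 0.0377), and its set 1415862_at was not (-1.82, adjusted p = 0.144). A fit to the 2 AhR HET groups alone called none of *Dct* (adjusted p = 0.0714), *Mitf* (adjusted p = 0.0737) and *Mlana* (adjusted p = 0.17), and the call of *Mlana* was lost in 14 of 27 alternatives. *Kit* differed by -0.94 (adjusted p = 0.0686), *Oca2* by -1.41 (adjusted p = 0.231), *Slc45a2* by -0.46 (adjusted p = 0.464) and *Sox10* by -0.21 (adjusted p = 0.345).

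Without AhR HET untreated 2 the differences of *Dct*, *Mlana*, *Tyrp1* and *Pmel* became smaller, and so did their standard errors. *Dct* fell by 1.80 (SE 0.25, adjusted p = 0.000537), *Mlana* by 1.44 (SE 0.17, adjusted p = 0.000203), *Tyrp1* by 1.11 (SE 0.23, adjusted p = 0.0061) and *Pmel* by 1.07 (SE 0.18, adjusted p = 0.00168). These 4 of 10 members stood beside 6.3% of all genes called lower. *Dct* and *Mlana* were called in both fits. *Mitf* (-0.61, adjusted p = 0.0615) was not called in the fit to the 11 arrays, and it was called when AhR KO 2d Imiquimod 1 and 2 were left out too (-0.61, adjusted p = 0.0299) or the *Gapdh* covariate was added (-0.71, adjusted p = 0.0223). *Tyr* differed by -0.76 (adjusted p = 0.121), *Kit* by -0.87 (adjusted p = 0.107), *Oca2* by -0.24 (adjusted p = 0.545) and *Slc45a2* by 0.09 (adjusted p = 0.828).

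By the main sets of 7 members, every treated AhR HET array was below every untreated one, compared with 14.4% of all genes. These were *Tyrp1*, *Dct*, *Pmel*, *Mlana*, *Mitf*, *Kit* and *Sox10*. The same main sets had no overlap when AhR HET untreated 2 was left out, compared with 23.6% of all genes. The second set of *Kit* and the other sets of *Sox10* overlapped with and without that array. The members' median log2 difference was -1.80 with the array and -0.82 without it, beside -0.01 and 0.00 over all genes. In whole skin, fewer melanocytes and less RNA per melanocyte cannot be told apart. Skin of AhR HET mice also shifted in other tissue markers after IMQ: *Krt14*, a keratin of basal keratinocytes, rose by 1.49 (adjusted p = 2.17e-05), and *Col1a1*, a dermal collagen, fell by 1.499 (adjusted p = 0.00484). The part of a changed tissue make-up in the members' differences was not tested.

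In AhR KO skin the log2 differences after IMQ were the same with and without AhR HET untreated 2, which entered by the pooled spread alone. Over all 12 arrays *Dct* fell by 2.27 (SE 0.55, adjusted p = 0.00918) and *Mitf* fell by 0.93 (SE 0.21, adjusted p = 0.00547). These were 2 of 10 members, beside 12.1% of all genes called lower. Without AhR HET untreated 2 the call also took in *Mlana*, which fell by 1.35 (SE 0.15, adjusted p = 4.31e-05), *Pmel*, which fell by 1.28 (SE 0.16, adjusted p = 7.19e-05), and *Tyrp1*, which fell by 0.68 (SE 0.20, adjusted p = 0.0216). That made 5 of 10 members, beside 13.1% of all genes. With a fit to the 2 AhR KO groups alone, *Kit* (-0.83, adjusted p = 0.0474) joined them as a sixth member, beside 13% of all genes.

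*Oca2* differed by 0.49 in AhR KO skin, with an adjusted p of 0.644 over all arrays and 0.0765 without AhR HET untreated 2. *Tyr* (-0.10), *Slc45a2* (-0.14) and *Sox10* (-0.09) were close to 0. *Tyr* already read 4.77 to 4.96 in AhR KO skin before IMQ, and its lowest value on any array was 4.60. Whether a fall of *Tyr* there could have shown was not tested. Every treated array was below every untreated one for *Tyrp1*, *Dct*, *Pmel*, *Mlana* and *Mitf*, 5 of 10 members, compared with 21.1% of all genes. The members' median log2 difference was -0.76, beside 0.07 over all genes. Because 2 of the 3 treated AhR KO arrays had a raised *Gapdh* difference, the comparison was also made with AhR KO 2d Imiquimod 3 alone for its group, whose spread was then assumed to be that of the other groups. *Dct* then differed by -2.48 (adjusted p = 0.107) and *Mitf* by -0.68 (adjusted p = 0.153), so neither was called. With AhR HET untreated 2 also left out, *Dct* (-2.48, adjusted p = 0.000224), *Pmel* (-1.48, adjusted p = 0.00109) and *Mlana* (-1.09, adjusted p = 0.00713) were called from that array, and *Mitf* (-0.68, adjusted p = 0.052) was not.

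**Figure D3:**
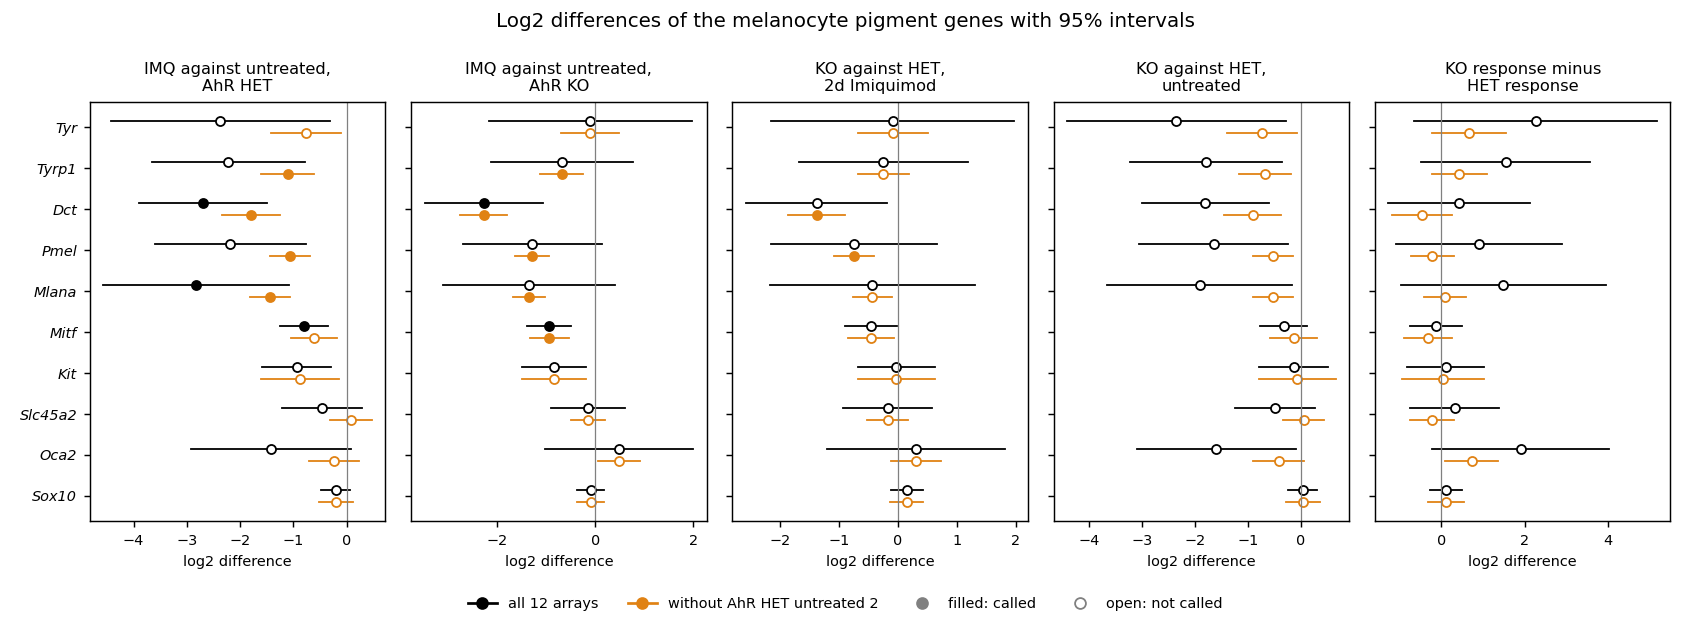
Log2 difference of each member (horizontal axes) in the 5 comparisons, with 95% intervals from limma, over all 12 arrays (black) and without AhR HET untreated 2 (orange); filled points passed the call, open points did not. Leaving out that array narrows every interval of *Dct*, *Pmel*, *Mlana*, *Tyrp1*, *Tyr* and *Oca2*, and moves their points toward 0 where untreated AhR HET skin is set against treated AhR HET or untreated AhR KO skin.

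Treated skin of the genotypes was compared to ask whether the absence of AhR changed the members' level after IMQ. Over all 12 arrays no member was called, beside 1.86% of all genes called lower. In limma, 2 members had an unadjusted p under 0.05, as had 21.04% of all genes. The log2 difference of AhR KO from AhR HET was -1.39 for *Dct* (SE 0.55, adjusted p = 0.179), -0.75 for *Pmel* (SE 0.65, adjusted p = 0.534), -0.46 for *Mitf* (SE 0.21, adjusted p = 0.226) and -0.44 for *Mlana* (SE 0.80, adjusted p = 0.782). The array that widened these errors belonged to neither group. Without AhR HET untreated 2, *Dct* (-1.39, SE 0.22, adjusted p = 0.00332) and *Pmel* (-0.75, SE 0.16, adjusted p = 0.0142) were lower in AhR KO skin, 2 of 10 members beside 3.66% of all genes. *Mlana* (adjusted p = 0.106) and *Mitf* (adjusted p = 0.138) were not called.

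With AhR KO 2d Imiquimod 3 alone for its group and AhR HET untreated 2 left out, *Dct* was called (-1.59, adjusted p = 0.013) and *Pmel* was not (-0.95, adjusted p = 0.0522). Every treated AhR KO array was below every treated AhR HET array for *Dct*, *Pmel*, *Mlana* and *Mitf*. These were 4 of 10 members, compared with 15% of all genes. By the main set of *Sox10* every treated AhR KO array was above every treated AhR HET array, at a log2 difference of 0.15 (adjusted p = 0.535). Set 1424985_a_at of *Sox10* did the same, and set 1425369_a_at overlapped. The share of all genes in this upward direction was not counted. With the *Gapdh* covariate and AhR HET untreated 2 left out, the log2 differences of *Mitf* and *Mlana* shrank to -0.11 and -0.20. Those of *Dct* and *Pmel* were then -1.79 and -1.04. The intervals of the members that were not called remained wide over all 12 arrays: for *Tyrp1* the 95% interval of the log2 difference ran from -1.69 to 1.19, and for *Tyr* from -2.16 to 1.98. Keratins of differentiating epidermis also differed between the treated groups, with *Krt10* lower in AhR KO skin by 2.71 on the log2 scale (adjusted p = 0.00593). Whether the members' differences move with the thickness or state of the epidermis was not tested.

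In untreated skin no member was called between the genotypes, beside 0.0055% of all genes called in either direction. In limma, 6 members had an unadjusted p under 0.05, compared with 6.486% of all genes. By the main sets of 5 members, *Tyr*, *Tyrp1*, *Dct*, *Pmel* and *Mlana*, every AhR KO array was below every AhR HET array, compared with 3.78% of all genes. Their log2 differences were between -1.65 (*Pmel*) and -2.36 (*Tyr*), with adjusted p-values of at least 0.719. Without AhR HET untreated 2 the same 5 members had no overlap, beside 6.1% of all genes. Their log2 differences were then -0.91 for *Dct*, -0.75 for *Tyr*, -0.68 for *Tyrp1*, -0.54 for *Pmel* and -0.52 for *Mlana*, each with an adjusted p of 1, and 0.022% of all genes were called. The growing hair follicle genes differed in the same direction. Their mean signal was higher in each untreated AhR HET array (7.65, 11.54 and 7.87) than in each untreated AhR KO array (6.10, 6.91 and 5.95). The members' mean read 7.32, 9.87 and 7.55 in the same AhR HET arrays, and 7.02, 7.05 and 7.05 in the AhR KO arrays. Of the hair follicle genes, 25 of 25 had a negative log2 difference, with a median of -2.75 over all arrays and -1.47 without AhR HET untreated 2. None of them was called either. The part of hair growth in the members' differences was not tested.

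Whether the genotypes responded to IMQ by different amounts was tested directly, as an interaction. No member was called, beside 1.32% of all genes called in either direction over all arrays and 1.4% without AhR HET untreated 2. No member had an unadjusted p under 0.05 over all arrays in limma, beside 17.51% of all genes. When AhR HET untreated 2 was left out, *Oca2* alone had, beside 16.8% of all genes (log2 difference of the responses 0.73, 95% interval 0.09 to 1.36, adjusted p = 0.233). For *Dct* the interval ran from -1.28 to 2.12 over all arrays and from -1.20 to 0.25 without AhR HET untreated 2. For *Pmel* it ran from -1.10 to 2.90 and from -0.73 to 0.29. The data thus did not show that the fall of these genes differed between AhR HET and AhR KO skin, and did not show that it was equal.

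The counts of the lists that follow stand beside the shares of all genes. After IMQ, 3.83% of all genes fell and 5.22% rose in AhR HET skin, and 12.1% fell and 10.6% rose in AhR KO skin. Without AhR HET untreated 2 these shares were 6.3% and 7.09% in AhR HET skin and 13.1% and 11.5% in AhR KO skin.

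Of 12 other genes of pigment cells listed, 11 were measured: *Gpr143*, *Mc1r*, *Trpm1*, *Tspan10*, *Gpnmb*, *Pax3*, *Ednrb*, *Bace2*, *Irf4*, *Ptgds* and *Cdh19*. AhR HET untreated 2 was the highest array for 6 of them, by more than 1 log2 unit for 5. After IMQ 2 of 11 fell in AhR HET skin and 3 of 11 fell in AhR KO skin, and none rose. Both counts were 3 without AhR HET untreated 2. *Ptgds*, which encodes a prostaglandin D2 synthase, fell in both, by 1.51 (adjusted p = 0.00808) and by 1.20 (adjusted p = 0.011). *Pax3*, a transcription factor of the melanocyte lineage, fell by 0.75 in AhR HET skin (adjusted p = 0.00868). *Irf4*, a transcription factor of melanocytes and of immune cells, fell by 2.13 in AhR KO skin (adjusted p = 0.00111), and without AhR HET untreated 2 it also fell by 1.07 in AhR HET skin (adjusted p = 0.0391).

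*Cdh19*, a cadherin of neural crest derived cells, was the gene of that list that differed between genotypes. Its log2 signals were 7.10, 6.16 and 7.68 in AhR HET untreated and 7.21, 7.22 and 7.50 in AhR KO untreated. After IMQ they were 7.01, 7.25 and 6.997 in AhR HET skin and 5.58, 4.99 and 5.71 in AhR KO skin. The 3 treated AhR KO arrays lay below all others. *Cdh19* fell by 1.88 after IMQ in AhR KO skin (adjusted p = 0.000872) and was lower there than in treated AhR HET skin by 1.66 (adjusted p = 0.0113), and its interaction was -1.99 (adjusted p = 0.0488). When AhR HET untreated 2 was left out, the interaction was -1.58 (adjusted p = 0.0278).

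Genes that build and move melanosomes or related organelles act in many cell types. Of 21 measured, 2 rose and none fell after IMQ in AhR HET skin, and 2 rose and 2 fell in AhR KO skin. With AhR HET untreated 2 left out, 3 rose and none fell in AhR HET skin, and 2 rose and 3 fell in AhR KO skin. Their median log2 differences were 0.11 and -0.05. *Slc7a11*, the cystine transporter needed for pheomelanin and for the defence against oxidative stress, rose in both, by 3.68 (adjusted p = 1.51e-06) and by 4.69 (adjusted p = 1.45e-07), and was higher in treated AhR KO than in treated AhR HET skin by 1.00 (adjusted p = 0.0291). *Rab38*, a small GTPase that directs tyrosinase to melanosomes, rose in AhR HET skin by 1.09 (adjusted p = 0.00383) and was lower in treated AhR KO than in treated AhR HET skin by 0.79 (adjusted p = 0.0383). *Rab27a* and *Mreg*, which take part in melanosome transport, fell in AhR KO skin, by 1.17 (adjusted p = 0.00827) and by 0.72 (adjusted p = 0.00167). *Mreg* also had an interaction of -0.97 (adjusted p = 0.0284).

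Of 13 measured signals that act on melanocytes, 1 rose and 3 fell after IMQ in AhR HET skin, and 2 rose and 1 fell in AhR KO skin. The count that fell in AhR HET skin was 2 without AhR HET untreated 2, and the other counts were the same. *Nrg1*, a neuregulin ligand of ERBB receptors, rose by 1.52 (adjusted p = 0.0231) in AhR HET and by 2.61 (adjusted p = 0.000356) in AhR KO skin. *Bmp4*, a bone morphogenetic protein, fell by 1.07 (adjusted p = 0.00247) and by 1.55 (adjusted p = 6.41e-05). *Corin*, a protease of the dermal papilla that modulates agouti signalling, fell by 2.01 in AhR HET skin (adjusted p = 0.0093). Its log2 signals there were 5.47, 6.31 and 4.36 before and 3.41, 3.10 and 3.599 after IMQ, so the groups did not overlap. *Edn1*, an endothelin that stimulates melanocytes, fell by 0.76 in AhR HET skin (adjusted p = 0.023), and *Hgf*, hepatocyte growth factor, rose by 0.70 in AhR KO skin (adjusted p = 0.0127). *Edn1* was not called without AhR HET untreated 2. Between the genotypes no gene of the list was called over all arrays, and without AhR HET untreated 2 *Bmp4* was lower in treated AhR KO skin by 0.66 (adjusted p = 0.033). *Kitl*, the ligand of KIT, read 11.07 in AhR HET untreated 2 and 9.22 to 10.34 elsewhere.

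Markers of the cells that share *Kit*, *Sox10* or a hair follicle with melanocytes were measured beside the members. Mast cell genes, 12 measured, had a mean log2 signal of 5.91 to 6.76 in AhR HET untreated, 6.56 to 6.82 in AhR KO untreated, 6.91 to 7.14 in AhR HET 2d Imiquimod and 6.98 to 7.14 in AhR KO 2d Imiquimod. Their median log2 difference after IMQ was 0.38 in AhR HET skin and -0.45 in AhR KO skin, where 7 of 12 were below 0. In AhR KO skin the list mean and the median thus went opposite ways. The genes split there, and 3 rose and 4 fell. *Hdc*, histidine decarboxylase, which is part of the mean, rose by 6.25 (adjusted p = 5.53e-07). *Mcpt4*, a mast cell protease, fell by 1.57 (adjusted p = 0.00691). In AhR HET skin 3 rose and none fell. The count that fell in AhR KO skin was 5 without AhR HET untreated 2, and the other counts were the same. *Cpa3*, a carboxypeptidase of mast cell granules, read 10.05, 9.71 and 9.94 in AhR KO untreated and 8.98, 9.31 and 9.03 in AhR KO 2d Imiquimod, without overlap. In AhR HET skin it read 10.12, 8.66 and 9.445 before and 9.44, 9.49 and 9.68 after IMQ, with overlap. The part of mast cells in the values of *Kit* was not tested.

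Schwann cell genes, 13 measured, had a mean log2 signal of 7.85 to 8.27 in untreated AhR HET and 8.12 to 8.26 in untreated AhR KO skin, and of 7.62 to 7.80 and 7.59 to 7.80 after IMQ. Of them 2 fell in AhR HET skin and 4 fell in AhR KO skin, and none rose. In each genotype 4 fell without AhR HET untreated 2. *Mbp*, myelin basic protein, fell by 1.86 in AhR KO skin (adjusted p = 0.00697), and without that array it also fell by 1.44 in AhR HET skin (adjusted p = 0.000768). AhR HET untreated 2 had the lowest of the 6 untreated means of this list, while it had the highest mean of the members. Of the 25 growing hair follicle genes, 8 fell after IMQ in AhR HET skin, and 6 fell without AhR HET untreated 2. *S100a3*, a calcium-binding protein of the hair cuticle, fell by 3.72 (adjusted p = 0.0306) with that array and fell by 2.14 (adjusted p = 0.00492) without it. The median log2 difference of the 25 genes in AhR HET skin was -2.56 over all arrays and -1.26 without AhR HET untreated 2. For the members it was -1.80 and -0.82. In AhR KO skin none of the 25 was called over all arrays, and their median log2 difference was -0.18, beside -0.76 for the members. When AhR HET untreated 2 was left out, *Foxn1* rose by 1.04 (adjusted p = 0.00769), *Krt28* fell by 1.56 (adjusted p = 0.022) and *Hoxc13* fell by 0.81 (adjusted p = 0.04) in AhR KO skin. *Foxn1* read 7.18 and 7.25 in AhR KO 2d Imiquimod 1 and 2, the arrays with the raised *Gapdh* difference. It read 6.09 in AhR KO 2d Imiquimod 3, close to the 5.84, 5.60 and 5.97 of AhR KO untreated. *Krt28* and *Hoxc13* were lowest in AhR KO 2d Imiquimod 3, at 4.41 and 5.84. The part of RNA quality in these calls was not tested. The plot of list means by array shows that the members and the growing hair follicle genes share their peak in AhR HET untreated 2.

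**Figure D4:**
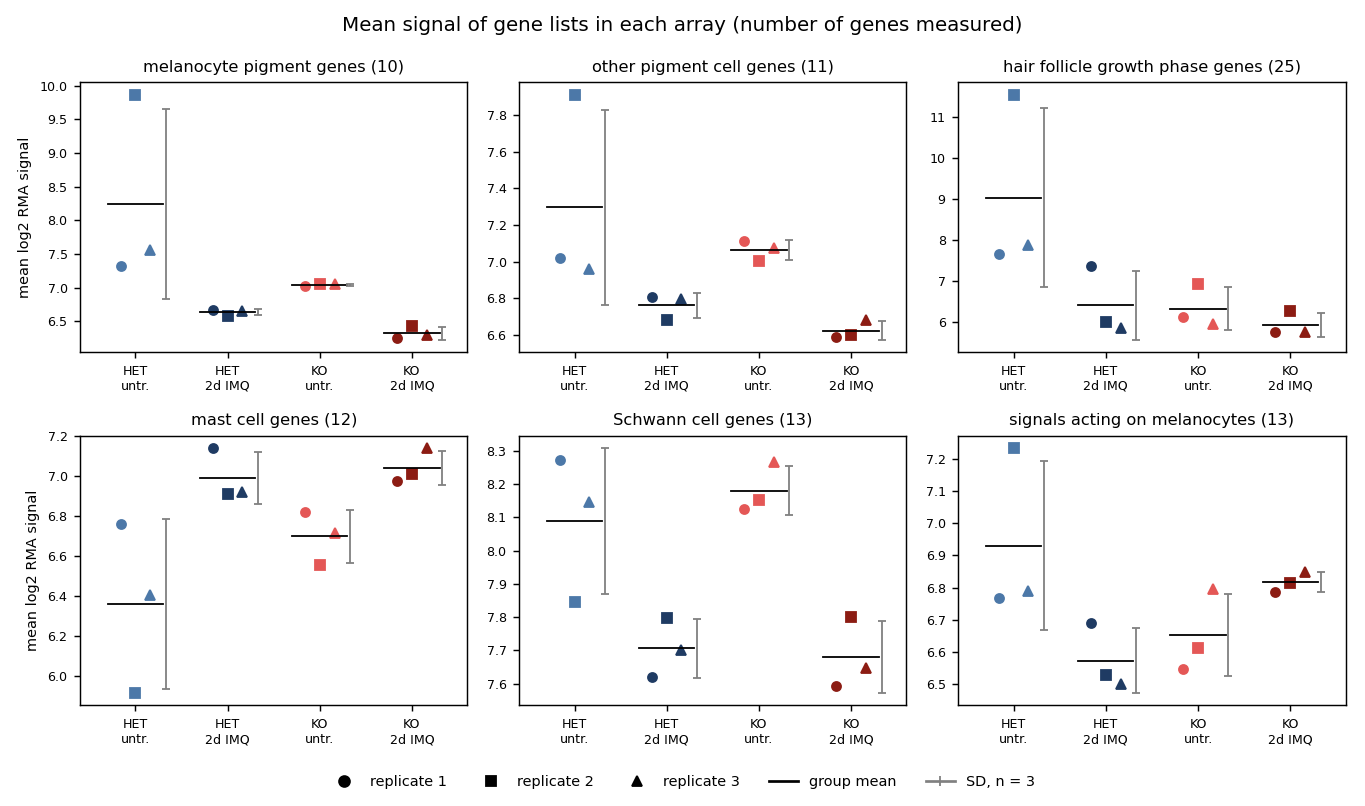
Mean log2 RMA signal (vertical axes, not starting at 0) over the measured genes of 6 lists, by group (horizontal axis); symbols mark the replicate, the black line the group mean and the grey bar the SD over 3 arrays. The pigment lists and the growing hair follicle list peak together in AhR HET untreated 2, and the members' mean is lower after IMQ in both genotypes.

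The members resembled each other to different degrees. Set against the mean log2 signal of *Tyr*, *Tyrp1*, *Dct*, *Pmel*, *Mlana*, *Slc45a2* and *Oca2* on each array, Pearson's r over 12 arrays was 0.75 for *Mitf*, 0.50 for *Kit* and 0.32 for *Sox10*. The 7 genes of that mean, which they help to set, had r of 0.90 (*Oca2*) to 1.00 (*Tyrp1*). Over the 11 arrays without AhR HET untreated 2, *Tyrp1* (0.98), *Pmel* (0.96), *Dct* (0.95) and *Mlana* (0.95) kept high values, whereas *Tyr* had 0.70, *Slc45a2* 0.29 and *Oca2* 0.01. These correlations describe arrays that fall into 4 groups and carry no test.

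Among genes that are no members, the 10 with the highest r over 12 arrays were *Dclk3*, *Col11a1*, *Msx2*, *Minpp1*, *Krtap5-1*, *Krtap5-5*, *Cnpy4*, *Ly6g6d*, *Lef1* and *Krtap5-2*, with r of 0.96 to 0.99. They included *Msx2* and *Lef1*, transcription factors of the hair matrix, and 3 hair keratin-associated proteins. Over the 11 arrays without AhR HET untreated 2 the 10 genes were *Wdr78*, *Gtf2i*, *Zfp882*, *Cntrob*, *Rprd1a*, *Fzd3*, *Notch1*, *Thap2*, *Slc7a2* and *Tmem25*, with r of 0.92 to 0.97. The 2 lists shared 0 of their 10 genes, so the genes most like the members over all 12 arrays depended on that 1 array.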

How the data were processed

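Whole skin RNA of 12 samples was hybridised to Affymetrix Mouse Genome arrays. The authors deposited log2 values made by RMA with the R package affy (versions not given in the sources used here). From 45101 probe sets, 64 control sets were dropped, as were 932 that matched more than 1 gene and 9160 that had no gene symbol. This left 34945 sets and 18193 genes, of which each was represented by its brightest set on average. Differences were fitted with limma 3.58.1 in R 4.3.3 (4 group means, eBayes, two-sided tests, 8 residual degrees of freedom), with Benjamini-Hochberg adjustment over all genes. Calls needed an adjusted p under 0.05 together with a fold change of 1.5 or more. The script was tested on simulated data. The study's RankProd test was not run here. Each p-value sets a difference between groups against the spread between samples, which the fit pooled over its groups. With 3 arrays a group, the number of arrays limits the precision. All members were named, and of the other lists up to 4 called genes, by size, or the 2 brightest where none was called. The members, lists and alternatives were chosen with earlier results of these data known. Deviations of same-numbered arrays from their group means correlated with r of -0.18 to 0.32, above 0.1 in 7 of 18 pairs. The main fit did not pair arrays by replicate number, and a fit with that number as a block is given below. Alternatives changed the probe set, scaling, dim filter, variance model, weights, covariate, threshold and arrays. The last, 2 alternatives leaving out AhR HET untreated 2 together with another change, were chosen after seeing the data.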

Additional observations from a re-analysis of the deposited data

How the results depend on the processing

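The count of members called lower after IMQ in AhR HET skin, 3 of 10, was 5 with every probe set tested on its own, 5 with genes of a mean signal of at least 5, 6 with array weights, 0 with a fit to only the groups compared, and 1 at an adjusted p under 0.01. Leaving out 1 array at a time gave 1 to 6: 6 without AhR HET untreated 1, 5 without AhR HET untreated 3, and 1 without AhR HET 2d Imiquimod 1 or 2. In AhR KO skin the count of 2 was 1 with a gene's probe sets averaged, 5 with array weights, 0 with the *Gapdh* covariate, 0 with AhR KO 2d Imiquimod 3 alone and 6 with a fit to only the groups compared. Leaving out 1 array gave 2 to 5, with 5 without AhR HET untreated 2. Between treated AhR KO and AhR HET skin the count of 0 was 1 with array weights and 2 with only the groups compared, and leaving out 1 array gave 0 to 2, with 2 without AhR HET untreated 2. Without AhR HET untreated 2, and with AhR KO 2d Imiquimod 3 alone, the counts in these 3 comparisons were 5, 3 and 1, and with the *Gapdh* covariate in place of that choice they were 5, 5 and 2. The cause of these moves was not tested. In untreated skin and in the interaction the count was 0 under every alternative that was run, and a fit to only the groups compared gives no value for the interaction. Over 18 pairs of same-numbered arrays the deviations from the group means correlated with r of -0.18 to 0.32, above 0.1 in 7 pairs. With the replicate number as a block, 6 members were called in AhR HET skin and 3 in AhR KO skin. No called difference of a member changed sign under any alternative. Of the members' single values under the alternatives, 27 lost a call, 50 gained one, 50 were uncalled and changed sign, and 1213 kept both. The number of arrays limits what could be called: over all 12 arrays the SE of a log2 difference was between 0.13 (*Sox10*) and 0.95 (*Tyr*).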
